A study of Mus musculus with 2 samples.

Results

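The cornified epidermis spots are the 150 spots of the Blank section, a mouse calvarial bone defect left without collagen/nHA material, that carried the largest share of RNA from 7 genes of the outer skin. Spots with more than 3666 unique molecular identifiers (UMIs) were kept, ranked by the summed UMIs of Lor, Flg, Flg2, Hrnr, Lce1c, Lce1m and Krt10 over all UMIs of the spot, and the highest 150 were taken. They made up 6.67% of the 2249 kept Blank spots, and the other 2099 are the spots they are set against. The series holds 4720 kept spots in all.

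Mammalian epidermis renews itself from a basal layer of dividing keratinocytes, which switch their keratins as they leave it and move outward. In the granular layer they make filaggrin family proteins, loricrin and late cornified envelope proteins, which transglutaminases then cross-link into a tough shell under the cell membrane. Most of these late proteins are encoded side by side in one stretch of the genome, the epidermal differentiation complex. The skull roof lies directly beneath skin, so scalp, its hair follicles and its thin muscle can be caught in a section of calvarial tissue.

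The assay caught RNA of 1 frozen section per group on an array of barcoded spots, and tissue was taken at day 7. In Blank the calvarial defect received no material, and in Col_nHA it received collagen/nHA, which gives the group its name. Labels give both as calvarial bone, and name no strain, sex or age. With 1 section a group there is no replicate, so no p-value is given, and the exact 95% intervals printed below hold counting error alone.

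The 150 cornified spots held 1134111 UMIs, with a lowest of 3675, a median of 6431 and a highest of 20022 per spot. The remaining Blank spots held 29571738 UMIs, with the lowest at that limit, a median of 10130 and a highest of 82267. The cornified spots were thus the shallower set, and their median number of detected genes was 2840.5, against 3479 in the remaining spots. Mitochondrial transcripts took 4.08% of UMIs in the cornified spots and 3.65% in the remaining spots. Every barcode of the Blank file also occurs in the Col_nHA file, as positions of one array design do. A spot can cover several cells, so fewer cells of a type and less RNA per cell cannot be told apart in any value below.

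The share of UMIs in the 7 rule genes was 6.78% in the highest cornified spot, 1.33% at rank 50, 0.858% at rank 100 and 0.601122% at rank 150. The spot just outside had 0.600601%, and the one after it 0.585%. The ranking therefore cuts a continuous slope, and rank 300 still had 0.206%. The median was 1.03% in cornified spots and 0.0121% in the remaining spots, of which 546 had no UMI of any rule gene. The cornified spots carried 17637 rule-gene UMIs, which is 68.4% of those in kept spots, beside 3.69% of all kept UMIs.

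Lor encodes loricrin, the main protein of the mouse cornified envelope, and lies at chr3:92080271-92083142 (GRCm38.p6). Its share of a spot's UMIs was 0.0215% at the lowest, 0.344% at the median and 2.86% at the highest in cornified spots. In the remaining spots the median was 0 and the highest 0.324%, and 1229 of 2099 spots had no Lor UMI. The sets overlapped, since 71 of the 150 cornified spots lay at or below that highest value and 342 of the remaining spots lay at or above the lowest cornified spot. Summed over spots, Lor stood at 5246 CPM (UMIs scaled to a common library total) in cornified spots and 77.3 CPM in the remaining spots, a ratio of 67.8 (64.6 to 71.2). The rule chose the spots on this count, so the ratio describes the choice. CPM here counts tagged molecules and is not scaled by transcript length, so an order of genes by CPM is an order of UMIs.

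Krt10 encodes the type I keratin that suprabasal cells pair with keratin 1. It had the most UMIs of the rule genes, with 0.0897%, 0.504% and 2.23% of UMIs at the lowest, median and highest cornified spot. In the remaining spots the median was 0.00496%, the highest 0.551%, and 886 spots had none. Its summed level was 6993 CPM in cornified spots against 155 CPM in the remaining spots, the smallest ratio of the 7 genes at 45.2 (43.6 to 46.9). Krt10 and Lor had at least 1 UMI in each of the 150 cornified spots.

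Flg encodes profilaggrin, which is cut into filaggrin units that bundle keratin filaments, and Flg2 and Hrnr encode its relatives filaggrin 2 and hornerin. Flg reached 827 CPM in cornified spots and 7.27 CPM in the remaining spots, a ratio of 113.8 (98.0 to 133) and the largest of the rule genes. Flg2 had 598 CPM in cornified spots and 10.3 CPM in the remaining spots, and Hrnr had 451 CPM and 7.17 CPM in the same order. Per spot these transcripts were thin, since 25, 22 and 25 cornified spots had no UMI of Flg, Flg2 and Hrnr.

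Lce1c and Lce1m encode late cornified envelope proteins, small cysteine-rich precursors of the shell. Lce1c had 577 CPM in cornified spots and 5.58 CPM in the remaining spots, a ratio of 103 (87.0 to 123). Lce1m had 860 CPM in cornified spots and 13.0 CPM in the remaining spots, a ratio of 66.2 (58.8 to 74.7). No UMI of Lce1c was seen in 35 cornified spots, and none of Lce1m in 24.

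**Figure D1:**
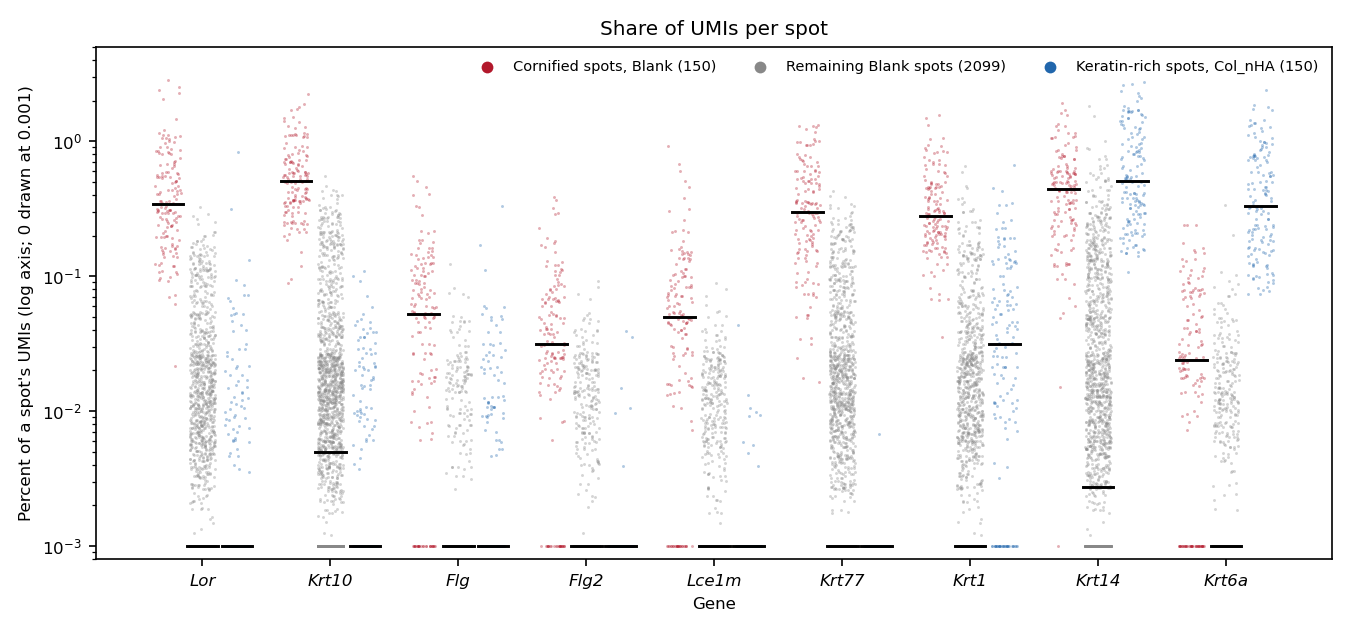
Share of each spot's UMIs (percent, log axis, with 0 drawn at 0.001) for 9 keratinocyte genes in the 150 cornified Blank spots, the remaining Blank spots and 150 keratin-rich Col_nHA spots. Points are spots and bars are medians. Lor, Krt10, Flg, Flg2 and Lce1m helped choose the cornified spots and Krt14 and Krt6a the Col_nHA spots, and Krt77 sits at a median of 0.298% in the cornified spots while 149 of the 150 Col_nHA spots have none.

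The starts of 5 rule genes are shown because they are the transcripts that define these spots. Each run is the RefSeq promoter window on GRCm38.p6, from 250 bases before the transcription start to 50 after it, read 5′ to 3′ on the gene's strand. Capitals mark matches to the AP-1 motif TGANTCA and to the TATA box TATAAA. The windows are Lor at chr3:92083093-92083392 on the minus strand, Flg at chr3:93273296-93273595 and Flg2 at chr3:93197023-93197322 on the plus strand, Lce1c at chr3:92678997-92679296 on the plus strand, and Krt10 at chr11:99389315-99389614 on the minus strand.
Lor: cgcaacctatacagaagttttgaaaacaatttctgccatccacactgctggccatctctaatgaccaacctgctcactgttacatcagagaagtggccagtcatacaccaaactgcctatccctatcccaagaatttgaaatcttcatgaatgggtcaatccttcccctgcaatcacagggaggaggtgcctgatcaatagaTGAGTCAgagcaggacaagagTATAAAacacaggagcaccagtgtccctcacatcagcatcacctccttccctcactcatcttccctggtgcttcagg
Flg: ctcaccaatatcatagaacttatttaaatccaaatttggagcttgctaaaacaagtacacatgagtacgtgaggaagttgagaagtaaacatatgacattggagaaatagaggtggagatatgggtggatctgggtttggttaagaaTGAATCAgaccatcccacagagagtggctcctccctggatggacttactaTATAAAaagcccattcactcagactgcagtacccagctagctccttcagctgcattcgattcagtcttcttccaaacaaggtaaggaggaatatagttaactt
Flg2: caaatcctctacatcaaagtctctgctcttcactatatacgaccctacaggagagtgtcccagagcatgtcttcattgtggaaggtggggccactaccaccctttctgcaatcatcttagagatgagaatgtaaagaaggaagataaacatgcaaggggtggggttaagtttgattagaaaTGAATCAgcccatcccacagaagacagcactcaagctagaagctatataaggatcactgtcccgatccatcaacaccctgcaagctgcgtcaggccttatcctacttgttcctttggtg
Lce1c: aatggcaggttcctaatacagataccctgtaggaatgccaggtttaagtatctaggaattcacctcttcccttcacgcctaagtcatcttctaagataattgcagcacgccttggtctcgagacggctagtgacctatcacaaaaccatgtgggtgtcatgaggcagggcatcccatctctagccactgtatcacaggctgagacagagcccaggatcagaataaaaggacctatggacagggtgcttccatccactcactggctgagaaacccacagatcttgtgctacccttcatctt
Krt10: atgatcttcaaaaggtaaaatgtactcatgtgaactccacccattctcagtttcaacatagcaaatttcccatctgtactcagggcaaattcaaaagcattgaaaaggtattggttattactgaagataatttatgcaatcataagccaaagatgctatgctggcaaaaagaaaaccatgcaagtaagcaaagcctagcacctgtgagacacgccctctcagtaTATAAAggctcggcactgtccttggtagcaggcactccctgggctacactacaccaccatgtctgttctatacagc

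An AP-1 match, the kind of site that Fos and Jun dimers bind, began 48 bases before the start in Lor, 103 before it in Flg and 69 before it in Flg2. The Flg and Flg2 matches share the letters TGAATCA, while the Lor match reads TGAGTCA. Of the 7 rule genes, 3 held an AP-1 match and 5 a TATA match, on either strand. Among all 32851 RefSeq promoter windows of the same length, 7.81% held TGANTCA and 13.6% held TATAAA. The Lce1c window held neither, and of 13 Lce1 genes with a window none held TGANTCA and 2 held TATAAA. The grainyhead motif AACCGGTT was in none of the 7 windows and in 0.146% of all windows. In the printed windows the AP-1 and TATA matches do not overlap, and a match is a description of letters in these windows.

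Genes that reached 10 CPM in the cornified spots, the remaining spots or both numbered 10425. Of these, 1270 (12.2%) were at least 2-fold higher in cornified spots and 798 (7.65%) at least 2-fold lower, with a median log2 ratio of 0.07. These shares are the background for every list below. A gene that is high only in cornified spots passes the 10 CPM minimum through those spots, and all genes share the UMI totals the rule used, so list counts describe the spots and test nothing. The lists were chosen with earlier results of these data known.

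The late cornified envelope family outside the rule showed the same picture as its rule members. Of 19 genes, 14 passed the minimum and all 14 were at least 2-fold higher, with a median log2 ratio of 6.26. Summed, the family took 0.407% of UMIs in cornified spots and 0.00544% in the remaining spots. Lce1k had 119 CPM in cornified spots and 1.05 CPM in the remaining spots, a ratio of 113.6 (76.4 to 174). It rested on 135 UMIs in 50 cornified spots, since the other 100 had none. Lce1a1 had the most UMIs, at 794 CPM in cornified spots against 11 CPM in the remaining spots. Lce3c, whose subgroup is tied to barrier repair in human skin, had 62.6 CPM in cornified spots and 0.710 CPM in the remaining spots, and Lce6a had 80.2 CPM and 1.42 CPM in the same order. The Lce1 genes are near copies of one another, so reads may have been split between them in a way the counts do not show, and their summed level is firmer than any single one.

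Of the 23 other cornified envelope and granular layer genes, 18 passed the minimum and 18 were at least 2-fold higher, with a median log2 ratio of 5.29. Sprr3 and Sprr4 had no UMI in cornified spots. Lgals7, encoding the epithelial lectin galectin-7, had the most UMIs of the list, at 4872 CPM in cornified spots and 236 CPM in the remaining spots. Krtdap, a keratinocyte differentiation-associated secreted protein, had 3057 CPM in cornified spots and 69.8 CPM in the remaining spots. Kprp, a proline-rich keratinocyte protein, had 391 CPM in cornified spots and 4.33 CPM in the remaining spots, a ratio of 90.4 (74.1 to 111). Rptn, encoding repetin, had the largest ratio of the list at 107 (50.8 to 253), but on 37 UMIs against 9. Cdsn, encoding corneodesmosin, which holds cornified cells together, had 475 CPM in cornified spots and 11.8 CPM in the remaining spots.

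All 5 measured suprabasal and late keratins outside the rule were at least 2-fold higher, with ratios from 20.4 to 55.6. Krt1, the partner of keratin 10, had 4470 CPM in cornified spots and 93.8 CPM in the remaining spots, a ratio of 47.7 (45.5 to 49.9). Krt77, a type II keratin of suprabasal mouse skin, had 4410 CPM in cornified spots and 111 CPM in the remaining spots, a ratio of 39.7 (38.0 to 41.5). Both were found in each of the 150 spots, with shares of 0.0352%, 0.278% and 1.55% for Krt1 and 0.0163%, 0.298% and 1.31% for Krt77 at the lowest, median and highest spot. Krt78, at 128 CPM in cornified spots, had a ratio of 55.6 (41.4 to 75.3), and Krt23, at 123 CPM, one of 47.7 (35.8 to 63.9). Krt80 had 343 CPM in cornified spots and 16.8 CPM in the remaining spots, a ratio of 20.4 (17.8 to 23.3). Krt2, which marks the upper layers of mouse tail, ear and sole skin, had no UMI in cornified spots.

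The cross-linking and proteolysis list holds the enzymes that finish and shed the cornified layer. All 18 of its 20 genes that passed the minimum were at least 2-fold higher, with a median log2 ratio of 5.12, and Klk14 and Spink12 had no UMI. Asprv1, the protease that trims profilaggrin, had 1181 CPM in cornified spots and 19.5 CPM in the remaining spots, a ratio of 60.6 (54.9 to 66.9). Casp14, a caspase that acts in filaggrin breakdown, had 129 CPM in cornified spots and 2.10 CPM in the remaining spots, a ratio of 61.4 (45.3 to 84.0). Klk7 and Klk5, serine proteases that cut corneodesmosomes, had ratios of 58.4 (49.2 to 69.5) and 43.3 (33.0 to 57.0). Spink5, which encodes the kallikrein inhibitor LEKTI, was at 257 CPM in cornified spots and 11.4 CPM in the remaining spots. Tgm1, the membrane-bound transglutaminase of keratinocytes, was at 67.9 CPM in cornified spots and 1.96 CPM in the remaining spots. Klk9 and the inhibitor genes Csta1 and Serpina12 were among the 15 highest ratios outside the rule, at 70.9, 73.0 and 68.7.

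Barrier lipid genes ranged from near equal levels to ratios above 50. Of 18 measured, 14 were at least 2-fold higher and none 2-fold lower, with a median log2 ratio of 3.08. Abca12, the lipid transporter of lamellar granules, had 126 CPM in cornified spots and 2.23 CPM in the remaining spots, a ratio of 56.5 (41.9 to 76.8). The lipoxygenase genes Aloxe3 and Alox12b had ratios of 55.7 (35.3 to 89.9) and 51.3 (32.5 to 82.5). Elovl4, which extends very long fatty acids, had the most UMIs of the list, at 686 CPM in cornified spots and 186 CPM in the remaining spots. Smpd1, encoding a lysosomal sphingomyelinase, had a ratio of 1.2 (0.958 to 1.48), an interval that includes equal levels.

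Of 15 measured desmosome and tight junction genes, 14 were at least 2-fold higher, with a median log2 ratio of 4.15. Perp and Dsp, a desmosomal membrane protein and desmoplakin, had 1626 CPM and 1085 CPM in cornified spots, against 97.5 CPM and 59.7 CPM in the remaining spots. The tight junction gene Cldn4 had a ratio of 30.1 (17.2 to 53.0) and Dsg1a, a desmosomal cadherin of upper epidermis, one of 29.3 (25.9 to 33.3). Tjp1, a scaffold used by many cell types, had 30.9 CPM in cornified spots and 39.3 CPM in the remaining spots.

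Of 15 epidermal transcription factor genes, 14 were at least 2-fold higher, with a median log2 ratio of 3.44. Ovol1, which acts as keratinocytes leave the cell cycle, had 37.9 CPM in cornified spots and 1.49 CPM in the remaining spots, a ratio of 25.5 (16.3 to 39.7). Grhl3, required for barrier formation in the mouse, had a ratio of 19.6 (10.6 to 35.7), and Zfp750 one of 18.9 (13.7 to 25.9). Klf4 and Cebpb had the most UMIs, at 309 CPM and 350 CPM in cornified spots, with ratios of 4.71 (4.19 to 5.28) and 3.14 (2.82 to 3.49).

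The basal keratinocyte list was also high in these spots. All 10 genes were at least 2-fold higher, with a median log2 ratio of 3.26, and the list took 1.2% of UMIs in cornified spots and 0.0797% in the remaining spots. Krt14 and Krt5, the keratin pair of basal cells, had 5966 CPM and 3885 CPM in cornified spots against 268 CPM and 186 CPM in the remaining spots. Krt14 shares were 0% at the lowest, 0.440% at the median and 1.91% at the highest cornified spot, with 1 spot at 0. The highest of the remaining spots reached 1.83%, so the ranges overlapped, but the median of the remaining spots was 0.00272% and 1016 of them had none. Krt15, a keratin of resting basal and bulge cells, had a ratio of 7.43 (6.95 to 7.95), and Col17a1, a hemidesmosome collagen, one of 18 (16 to 20.2).

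**Figure D2:**
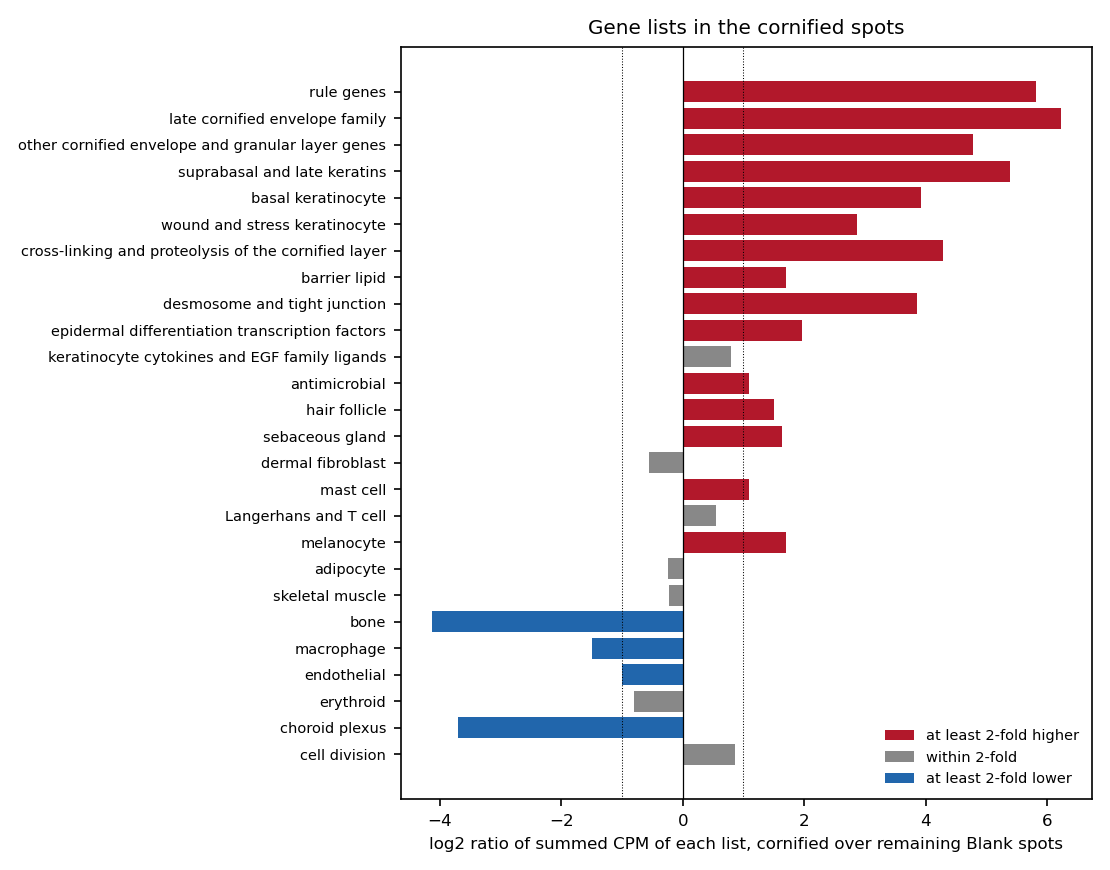
log2 ratio of the summed CPM of each of 26 gene lists, cornified over remaining Blank spots, with dotted lines at 2-fold. The late cornified envelope family has the longest bar, at a ratio of 74.7, the basal keratinocyte list is at 15.1, the dermal fibroblast list at 0.677 and the bone list at 0.0573.

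Many of the highest ratios came from 1 stretch of chromosome 3. Among the 40 highest ratios of genes with at least 50 CPM, 23 lay in the epidermal differentiation complex, taken here from S100a1 to S100a11 at chr3:90511034-93526288 (GRCm38.p6). Of the 23, 6 are rule genes that chose the spots, which leaves 17. Over all genes, 4030 reached 50 CPM, and the share of these in the complex was not counted. This window was drawn after the values were seen. It holds 69 protein-coding RefSeq genes, of which 65 are in the files and 37 passed the minimum. Of the 37, 30 were at least 2-fold higher, beside 12.2% of all 10425 genes, and 1 was lower. Of the 30, 28 were at least 20-fold higher, a limit for which no share over all genes was counted. All 28 measured genes that are not S100 genes were at least 20-fold higher, while of 9 measured S100 genes 2 were higher and 1 lower. Without the 6 rule genes, 22 of 22 such genes outside the S100 family were at least 20-fold higher. Most of them pass the 10 CPM minimum only through the cornified spots, so this count describes the spots and tests nothing.

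The S100 genes at the edges of the complex are calcium-binding proteins with wide tissue use. S100a14, an epithelial member, had a ratio of 13.1, and S100a16 one of 3.08. S100a6, S100a4 and S100a11 stood at 1.06, 0.940 and 1.15. S100a8, a neutrophil and stressed-keratinocyte protein, was at 34.4 CPM in cornified spots and 98.6 CPM in the remaining spots, a ratio of 0.349 (0.247 to 0.478), and 129 of the 150 cornified spots had none. Among genes that passed the minimum, those from Lor to Rptn were all at least 20-fold higher. Genes under it are left out, such as Tchh next to Rptn, at 8.82 CPM in cornified spots and a ratio of 5.11.

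**Figure D3:**
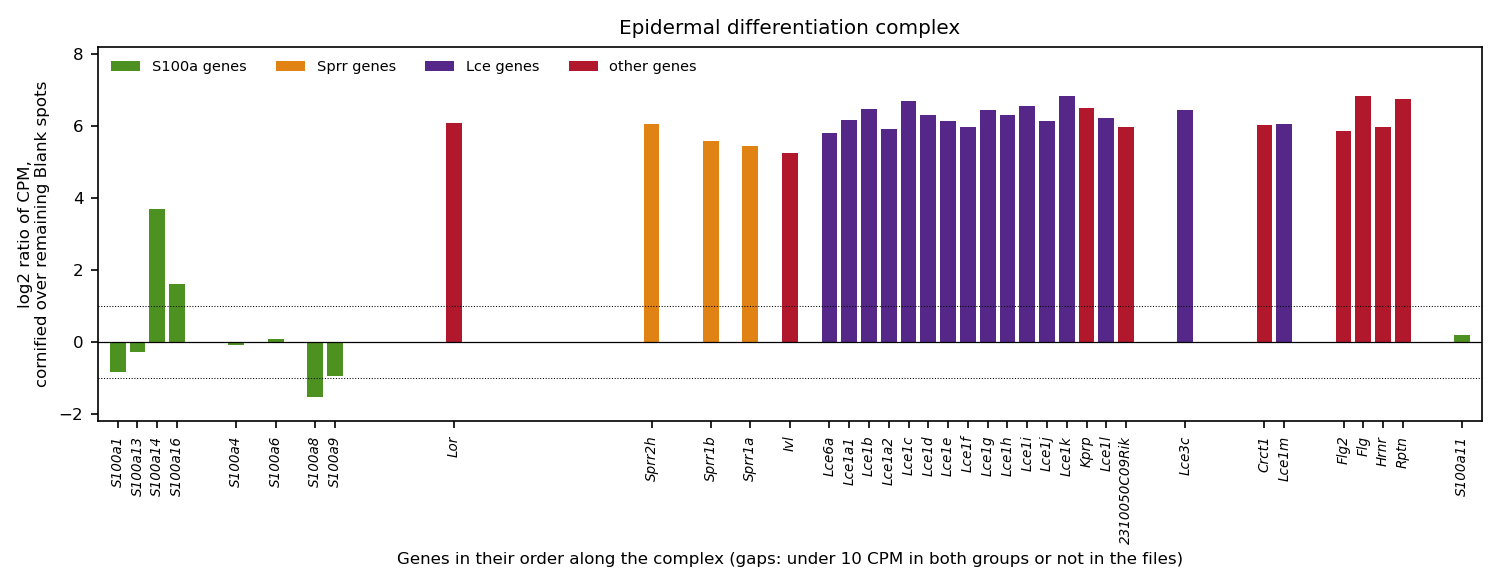
log2 ratio of CPM, cornified over remaining Blank spots, for the 37 measured genes of the epidermal differentiation complex in their order along the chromosome, with dotted lines at 2-fold. All bars from Lor to Rptn lie above a ratio of 20, and the S100a genes lie between 0.349 for S100a8 and 13.1 for S100a14.

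Other gene clusters, also drawn after the values were seen, held 0 (type I keratins), 1 (type II keratins) and 2 (kallikreins) of the 40 highest ratios. They also hold fewer measured genes, 9, 11 and 8 in that order against 37, so these counts do not compare the clusters. In the type I keratin cluster at chr11:99232761-100269951, 9 of 27 genes were measured and 9 were at least 2-fold higher, 4 of them at least 20-fold, rule gene Krt10 included. In the type II cluster at chr15:101348315-102032026, 11 of 26 were measured and 11 were higher, 7 of them at least 20-fold. Krt8 and Krt18, keratins of simple epithelia at the end of that cluster, were under the CPM minimum in both sets of spots. Krt8 had 1 UMI in cornified spots and 137 in the remaining spots, 0.882 CPM against 4.63 CPM, a ratio of 0.190. Krt18 had 0 UMIs in cornified spots and 205 in the remaining spots, where it stood at 6.93 CPM. Its ratio was at most 0.382 against a floor of 3 counts, so both ratios rest on few UMIs. In the kallikrein cluster at chr7:43680880-43940035, 8 of 12 were measured, 8 were higher and 7 were at least 20-fold higher. The share over all genes was 12.2% for 2-fold higher and was not counted for 20-fold.

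Hair follicle genes took few UMIs, and sebaceous genes more. Of 9 measured hair follicle genes, 7 were at least 2-fold higher, with a median log2 ratio of 2.76, but the whole list took 0.0255% of UMIs in cornified spots and 0.00898% in the remaining spots. Krt25, an inner root sheath keratin, had 40.6 CPM in cornified spots and 4.80 CPM in the remaining spots. Of the 18 hair follicle genes 5 were at 0 in cornified spots. Of 8 measured sebaceous genes, 5 were at least 2-fold higher, with a median log2 ratio of 1.57, and the list took 0.322% of UMIs in cornified spots and 0.103% in the remaining spots. Scd1, a fatty acid desaturase of sebaceous and fat cells, was seen in 149 of the 150 spots, with a median of 0.164% against 0.00884% in the remaining spots. The melanocyte genes Dct and Pmel rested on 23 and 13 UMIs in cornified spots, with ratios of 3.41 (2.10 to 5.28) and 2.92 (1.51 to 5.20).

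Wound and stress keratins were detected at lower CPM than the basal pair. Of 9 genes, 7 were at least 2-fold higher and 1 lower, with a median log2 ratio of 5.22. Krt6a, a keratin switched on in injured epidermis, had 474 CPM in cornified spots and 18.1 CPM in the remaining spots. Krt16, its partner, had 599 CPM in cornified spots and 13.7 CPM in the remaining spots. Krt6b had 64.4 CPM in cornified spots and 1.35 CPM in the remaining spots, and 38 cornified spots had no Krt6a UMI.

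Among signalling and defence genes, a few epidermal ligands stood out by ratio and few by level. Ereg, which encodes the growth factor epiregulin, had 79.4 CPM in cornified spots and 1.25 CPM in the remaining spots, a ratio of 63.4 (42.8 to 95.7), yet 115 cornified spots had none. Epgn, for epigen, had a ratio of 45.6 (17.9 to 126) on 14 UMIs against 8. Il33, an alarmin that stromal cells also make, had 140 CPM in cornified spots and 194 CPM in the remaining spots. Of 9 measured genes in that list, 7 were at least 2-fold higher, with a median log2 ratio of 2.96. In the antimicrobial list 4 of 5 were higher, led by Defb1 at a ratio of 28.7 (17.0 to 48.7), and Slpi, for a leukocyte protease inhibitor, was lower at 0.263 (0.113 to 0.520).

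The Langerhans and T cell list took 0.312% of UMIs in cornified spots and 0.213% in the remaining spots, with counts that differed widely between its genes. Cd207, the Langerhans cell lectin langerin, had 18 UMIs in cornified spots and 28 in the remaining spots, 15.9 CPM against 0.947 CPM, and 135 cornified spots had none. Epcam, made by Langerhans cells and by follicle epithelium, had a ratio of 15.8 (12.2 to 20.3). The MHC class II genes Cd74, H2-Aa, H2-Ab1 and H2-Eb1 had ratios between 1.22 and 1.44. Of 9 measured genes in that list 4 were at least 2-fold higher, with a median log2 ratio of 0.92. Of 4 measured mast cell genes 2 were higher, with Mcpt4, a connective tissue mast cell protease, at 124 CPM in cornified spots and 52.4 CPM in the remaining spots.

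The label was checked against other tissues. Fibroblast transcripts took more UMIs than any other list in the cornified spots as a whole. The dermal fibroblast list took 1.36%, 6.08% and 11.5% of UMIs at the lowest, median and highest cornified spot, and 5.64% overall against 8.33% in the remaining spots. Col1a1 had 23262 CPM in cornified spots and 31818 CPM in the remaining spots, a ratio of 0.731 (0.722 to 0.740). None of its 10 genes was 2-fold higher or lower, with a median log2 ratio of -0.56. All 150 cornified spots had over 1% of UMIs in this list, whereas 69 had over 1% in the basal list and 99 in the list of other cornified and granular genes. The cornified spots thus held epidermal RNA and fibroblast RNA together, so their RNA was not that of epidermis alone. Fibroblast RNA was no trait of these spots alone, and the part of spread RNA in it was not tested.

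Bone genes were the lowest class. All 5 measured bone genes were at least 2-fold lower, with a median log2 ratio of -3.74, and 96 of 150 cornified spots had no UMI of the list. Bglap, encoding osteocalcin, had 23.8 CPM in cornified spots and 599 CPM in the remaining spots, a ratio of 0.0397 (0.0262 to 0.0578). The list took over 1% of UMIs in 0 cornified spots and in 54 of the remaining spots. Of 7 macrophage genes 4 were at least 2-fold lower, with a median log2 ratio of -1.10, and Lyz2, for lysozyme, had 1192 CPM in cornified spots and 4283 CPM in the remaining spots. Of 5 endothelial genes 3 were lower, with a median log2 ratio of -1.02. Ftl1 and Mmp9, the ferritin light chain and a gelatinase of osteoclasts and neutrophils, were among the 10 lowest ratios, at 0.176 and 0.174.

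Muscle and choroid plexus genes show that sums and single spots can differ. Skeletal muscle genes had a ratio of sums of 0.855, and none of 7 was 2-fold higher or lower. Yet the median spot had 0.445% of UMIs in muscle genes in the cornified set and 0.0621% in the remaining set, where 265 spots over 1% carried the sum. Acta1, skeletal muscle actin, had 1920 CPM in cornified spots and 2012 CPM in the remaining spots. Ttr, the choroid plexus carrier of thyroid hormone, had 824 CPM in cornified spots and 11208 CPM in the remaining spots, a ratio of 0.0736 (0.0689 to 0.0784). But every cornified spot had Ttr, with 0.00785%, 0.0833% and 0.248% at the lowest, median and highest, and the median of the remaining spots was 0.0658%. Enpp2, also of the choroid plexus list, had 121 CPM in cornified spots and 1047 CPM in the remaining spots. The other 4 genes of the list were near 0, with 2 UMIs each of Kl, Folr1 and Kcne2 and 5 of Clic6 over all 150 spots. The part of spread RNA in such low, even levels was not tested.

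Shares of spots with a UMI were compared after each spot was thinned to 3000 UMIs. Lor was then found in 99.3% of cornified spots (96.3 to 100), in 20.4% of the remaining spots (18.7 to 22.2) and in 10.0% (4.90 to 17.6) of the 100 Blank spots richest in Ttr, a choroid plexus gene, where Lor should be lacking. Krt10 was found in 100%, 29.2% and 24.0% of the same sets. Flg was in 68.0% of cornified spots, 3.48% of the remaining spots and 2.0% of the Ttr-rich spots, and Klk7 in 48.0%, 2.43% and 2.0%. Median depths before thinning were 6431, 10130 and 7986 UMIs. The Ttr-rich values mark a background, and for Flg and Klk7 their intervals, 0.243 to 7.04 for both, take in the share of the remaining spots. Without thinning, Flg was in 83.3% of cornified spots and 7.00% of the remaining spots.

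The 150 spots varied along the rank that chose them. By rank they were summed as 3 groups of 50, with median depths of 8049.5, 6034 and 5669 UMIs. The rule genes must be lower down the ranks, and Lor had 9652, 3110 and 1809 CPM in that order. Genes the rule did not name followed at different slopes. Kprp was 7.78 times as high in the first 50 as in the last 50 (5.51 to 11.3), Casp14 5.58 times (3.17 to 10.6), Asprv1 5.21 times (4.39 to 6.22) and Klk7 3.9 times (2.95 to 5.21). The late cornified envelope family had 7648, 2289 and 1311 CPM, a ratio of 5.83 (5.30 to 6.43).

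Krt10, Krt77, Krt1 and the basal list were flatter along the ranks, but so were some late genes. Krt10 itself had a ratio of 2.47 (2.33 to 2.62) between the first and last 50, Krt77 of 2.24 (2.08 to 2.40) and Krt1 of 1.77 (1.65 to 1.89). The list of other cornified envelope and granular layer genes stood at 2.14 (2.07 to 2.21), below Krt10 and Krt77. Its members Dmkn and Lgals7 were at 1.87 and 1.34 (1.26 to 1.43). The barrier lipid list was flatter than that list, while the cross-linking and proteolysis list was steeper at 3.63 (3.29 to 4.01). The basal list had 12407, 10284 and 13200 CPM, with Krt5 at a ratio of 0.934 (0.872 to 1.0) and Krt15 at 1.06 (0.924 to 1.22). Krt16 had a ratio of 1.1 (0.926 to 1.31) and Krt6a of 0.911 (0.743 to 1.12), so no slope was detectable for either at this depth. Dermal fibroblast genes went the other way at 0.748 (0.734 to 0.763), muscle at 0.575 (0.537 to 0.615), fat at 0.498 (0.409 to 0.605) and haemoglobins at 0.310 (0.281 to 0.342).

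**Figure D4:**
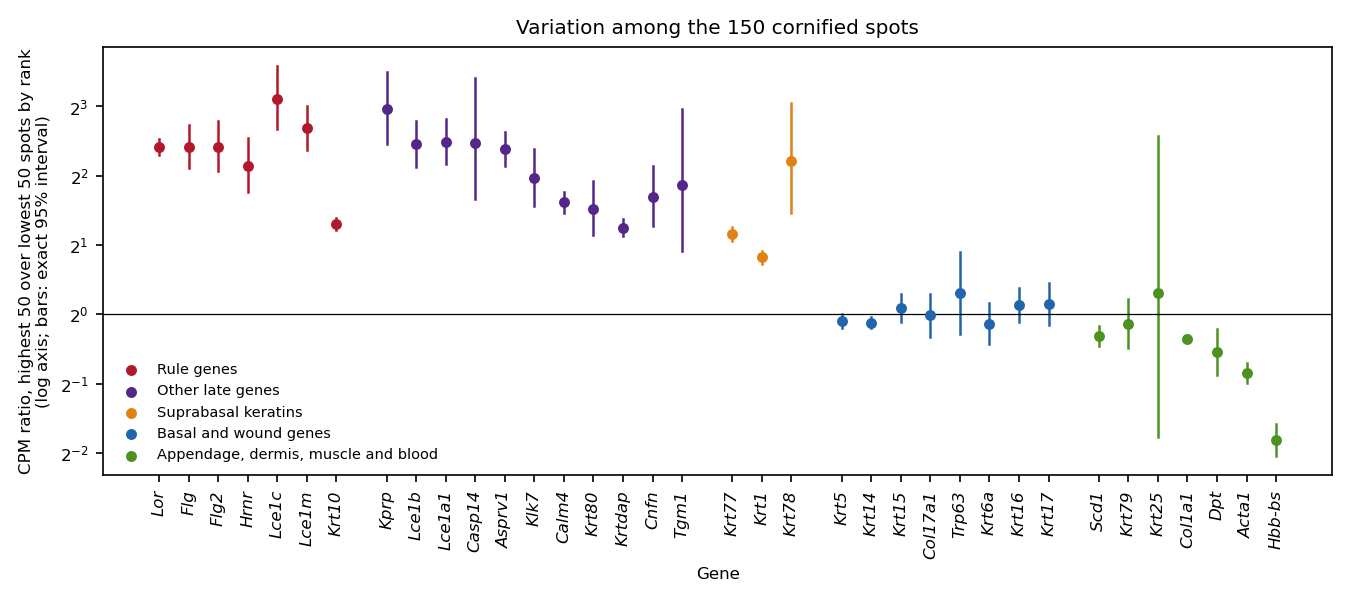
Ratio of CPM between the 50 highest and the 50 lowest ranked cornified spots (log axis), with bars for exact 95% intervals of counts. The rule genes and other late genes drawn here lie between 2.37 for Krtdap and 8.65 for Lce1c. Late genes not drawn include flatter ones, such as Dmkn at 1.87, and steeper ones, such as Lce1k at 11.4. Basal and wound keratins lie near 1, and Col1a1, Acta1 and Hbb-bs lie below 1.

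Across the 150 spots, shares of the 6 rule genes other than Krt10 were set beside those of other genes. As a share of UMIs, their sum had a Spearman rho of 0.717 with the late cornified envelope family, 0.763 with Asprv1, 0.682 with the cross-linking and proteolysis list and 0.587 with Calm4, a calmodulin-like gene of differentiating keratinocytes. With Krt10 the rho was 0.22, with Krt77 0.113, with Krt1 0.102 and with the basal list -0.212. Krt10 had a rho of 0.488 with total UMIs and of -0.637 with the dermal fibroblast list, while the 6 genes had 0.002 with total UMIs. All points share 1 library, and shares of 1 total are bound to trade off, so these values are descriptions. The spots were also chosen on the sum of the 6 genes and Krt10, which by itself lowers the rho between them.

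Spots just outside the rule were compared to see how sharply the set ended. The next 150 spots in rank had a median depth of 5658 UMIs. Asprv1 had 1181 CPM in the cornified spots and 212 CPM in these next spots, a ratio of 5.57 (4.84 to 6.43), and Krt1 a ratio of 3.20 (3.02 to 3.39). Krt14 was 1.91 times as high in the cornified spots (1.84 to 2.0), Elovl4 1.0 times (0.904 to 1.11) and Krt79, a keratin of the sebaceous duct, 1.02 times (0.887 to 1.18). Without these next 150 among the remaining spots, the ratio of Lor was 127, that of Flg 259 and that of Krt10 88.7. With each spot weighted equally they were 36.6, 57.3 and 23.7.

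The 150 remaining Blank spots richest in the sebaceous list, with a median depth of 9124.5 UMIs, were taken as another set of skin spots. The rule genes stood 11.5 times as high in the cornified spots as in these, and the late cornified envelope family 20.5 times. Basal genes were 2.35 times as high, with Krt14 at 5966 CPM in cornified spots and 2132 CPM in sebaceous-gene-rich spots. Alox12b was 20.3 times as high in cornified spots (7.51 to 76.8), while Elovl4 stood at 0.250 (0.231 to 0.270) and Fa2h, a fatty acid hydroxylase, at 0.206 (0.186 to 0.228). Defb8, a beta-defensin, had 457 CPM in cornified spots and 3346 CPM in sebaceous-gene-rich spots, a ratio of 0.136 (0.124 to 0.149).

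In the Col_nHA section 2 of 2471 kept spots reached the Blank edge of 0.601122%, at 1.59% and 0.746%, and the next had 0.325%. For a comparison of epidermal RNA, the 150 Col_nHA spots with the highest share of Krt5, Krt14, Krt6a, Krt6b and Krt16 were taken, at 0.483% to 8.32% of UMIs with 0.481% in the next spot. They held 2028873 UMIs with a median of 10925.5 per spot. Both sets were chosen on their own counts and by different genes. Each group is 1 section, so the material, the section and the place of the cut cannot be told apart. Of 10315 genes, 1264 (12.3%) were at least 2-fold higher in the cornified Blank spots and 684 (6.63%) at least 2-fold lower, with a median log2 ratio of 0.06.

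Krt77 was the extreme. It had 5001 UMIs in the cornified Blank spots and 1 UMI in the Col_nHA keratin-rich spots, a ratio of 8947 with a counting interval of 1605 to 353440. Krt10 had 6993 CPM in the cornified Blank spots and 125 CPM in the Col_nHA spots, a ratio of 55.9 (49.3 to 63.5), while its partner gene Krt1 had 4470 CPM and 873 CPM in that order, a ratio of 5.12 (4.85 to 5.41). Krt15 had 993 CPM in the cornified Blank spots and 40.4 CPM in the Col_nHA spots. The other basal genes were closer, although Krt5 and Krt14 had chosen the Col_nHA spots. Of the list, 2 of 10 were at least 2-fold higher and none lower, and Trp63, a transcription factor gene of stratified epithelium, had a ratio of 1.03 (0.836 to 1.27).

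The 7 rule genes, Krt10 included, had chosen the Blank set and not the Col_nHA set. All were higher in the Blank set, which describes the choice, and by unequal amounts. Lce1m was 91.8 times as high (58.5 to 153) and Flg2 63.8 times (40.6 to 107), Lor 24.5 times (22.2 to 27.1), Hrnr 20.8 times (15.3 to 29.0), Lce1c 10.2 times (8.33 to 12.5) and Flg 6.08 times (5.31 to 6.98). Of 15 measured genes of the late cornified envelope family 14 were at least 2-fold higher, with a median log2 ratio of 3.24, and Lce1k was 3.26 times as high (2.44 to 4.39). The cross-linking and proteolysis list was mixed, with 6 of 18 higher and 4 lower. In it Klk7 was at 1.36 (1.2 to 1.54) and Klk13 at 0.0818 (0.0471 to 0.133).

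The wound and stress list was lower throughout, with 9 of 9 genes at least 2-fold lower in the cornified Blank spots, of which Krt6a, Krt6b and Krt16 had chosen the Col_nHA spots. Spots chosen on these keratins can also be rich in the other genes of the list. The count therefore describes the choice and tests nothing. Krt17, a stress keratin not used in the choice, had 457 CPM in the cornified Blank spots and 2482 CPM in the Col_nHA spots, a ratio of 0.184 (0.168 to 0.201). Stfa1 and Stfa3, cysteine protease inhibitors, were at 0.0907 (0.0742 to 0.110) and 0.139 (0.123 to 0.156). S100a8 had 34.4 CPM in the cornified Blank spots and 1141 CPM in the Col_nHA spots. Rptn and Sprr1b, late genes that stressed epidermis also makes, were lower at 0.181 (0.126 to 0.255) and 0.394 (0.323 to 0.478).

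**Figure D5:**
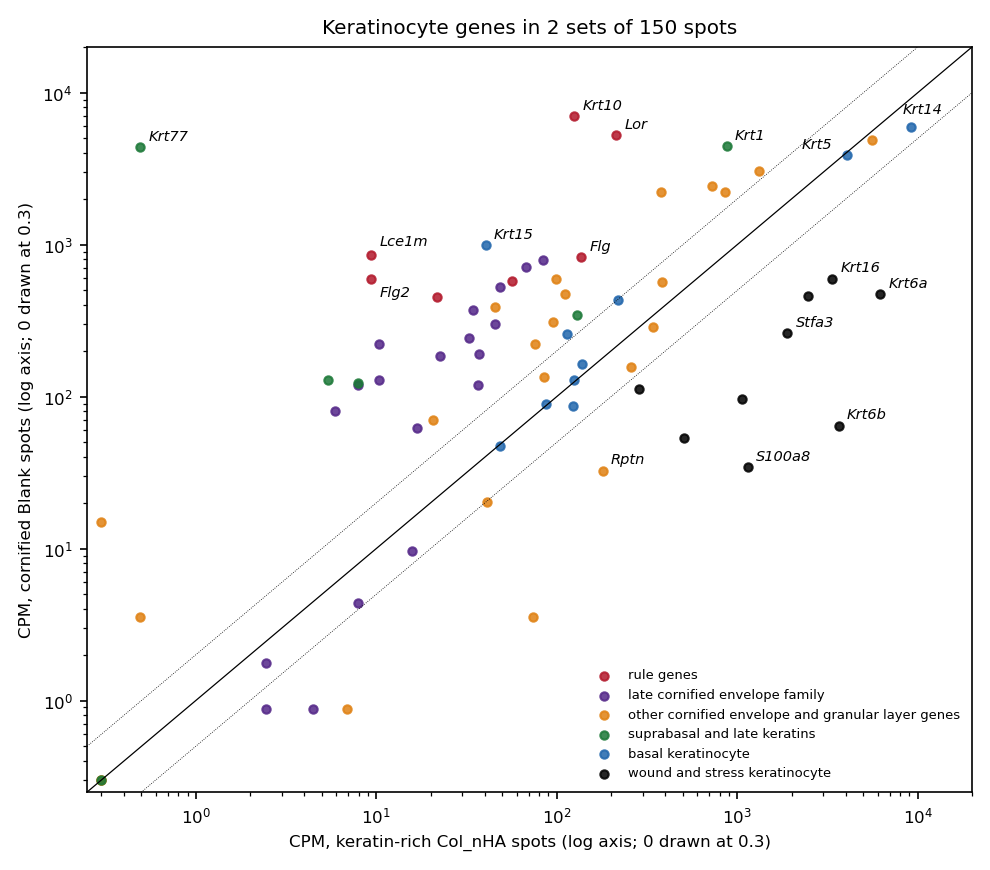
Summed CPM of 6 keratinocyte gene lists in the cornified Blank spots and in the keratin-rich Col_nHA spots (log axes, with 0 drawn at 0.3), with a solid line at equal levels and dotted lines at 2-fold. Krt77 lies at 4410 CPM in the cornified Blank spots, with 1 UMI in the Col_nHA spots, Krt5 lies near the line, and the 9 wound and stress genes lie below the lower dotted line.

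Among ligands, Ereg was 12.4 times as high in the cornified Blank spots (6.89 to 24.2), while Hbegf, another EGF family ligand, stood at 0.123 (0.0550 to 0.241). The lowest ratios by the naming rule were Arg1 at 0.0159, Sprr2a3 at 0.0173, Krt6b at 0.0176, Cxcl3 at 0.0193, Il1rl1 at 0.0267 and Cxcl2 at 0.0301. The highest after Krt77 were Ttr, Orm1, Myh8, Cfd and Dapl1. Ttr had 935 UMIs in the cornified Blank spots and 0 in the Col_nHA spots, so it was at least 558-fold higher against a floor of 3 counts. Genes of other tissues also differed between the sets, with muscle genes at a ratio of sums of 7.88 and fat genes at 7.71, and their part in the difference was not tested.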

How the data were processed

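Both deposited matrices are raw UMI counts, with 31053 genes and 4992 barcodes each, and the authors' tool was Space Ranger on genome build mm10, per the submitters' processing notes (no version given there; file headers name Cell Ranger 4). The labels describe frozen spatial sections, while their extraction text describes a droplet single-cell library. No image or spot position was used. Kept spots had at least 3667 UMIs in Blank and 4688 in Col_nHA, which are limits on depth and not a call of tissue. Counts were summed per set of spots and scaled to CPM. Ratios carry exact conditional binomial intervals, CPM Poisson intervals and shares of spots Clopper-Pearson intervals, all at 95% and for counting error only. No test was run. The depth of the cornified spots, 1134111 UMIs, makes 10 CPM a count near 11, so low genes have wide intervals. The members and the 26 gene lists, with 280 entries of which 278 were found (not Il36a and Il36g), were chosen with earlier results of these data known. Named genes were the 7 rule genes, the 15 highest and 10 lowest ratios at 50 CPM or more (mitochondrial, ribosomal, haemoglobin and nameless genes left out), and per list the 2 highest in CPM and the 2 largest ratios, and for Col_nHA the 6 highest and 6 lowest. S100a6, S100a4, S100a11, S100a14, S100a16, Krt8 and Krt18 were named after their values were seen, as were other list members given as examples. Doublets were not called, since a spot can hold several cells. Positions and promoters are RefSeq GRCm38.p6, and 30934 gene IDs matched a name table. Calculations were tested on simulated data. Alternatives were other UMI limits, numbers of spots, rule genes, scalings, CPM minimums and comparison spots, and no thinning. Software was Python 3.11.15, numpy 2.4.6, scipy 1.17.1, pandas 2.3.3 and matplotlib 3.10.9, with R 4.3.3 and edgeR 4.0.16 for TMM factors alone.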

Additional observations from a re-analysis of the deposited data

Results flagged for a closer look

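Barcodes under the UMI limit were left out of every comparison, and 152 of them reached the rule-gene share of the lowest member. Of 1724 such Blank barcodes with at least 1000 UMIs, these 152 had a rule-gene share at or above that of the member ranked 150. Their UMIs ran from 1005 through a median of 2567 to 3666, and they held 3916 rule-gene UMIs, against 17637 in the 150 members. Pooled, the rule genes took 1.02% of their UMIs, against 1.56% in the members. Set against the other 1572 barcodes of that depth class, which had a median of 1702 UMIs, the late cornified envelope family was 21.4 times as high, the basal list 7.14 times and the bone list 0.0785 times. Krt77 had 2232 CPM in the 152 barcodes and 267 CPM in the other barcodes, and Asprv1 had 831 CPM and 47.7 CPM in the same order. Thinned to 500 UMIs, a Lor UMI was found in 79.3% of the cornified spots, in 5.96% of the remaining kept spots and in 16.7% of the 2557 Blank barcodes under the limit with at least 500 UMIs. Those 2557 barcodes still hold 167 at or above the lowest member's rule-gene share, while the remaining kept spots are without the 150 members. The shares of these sets are therefore not like for like. Whether the barcodes under the limit lay over tissue was not tested.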

How the results depend on the processing

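Across 12 alternatives for the comparison with the remaining Blank spots, 0 of the 85 named genes past 2-fold crossed a ratio of 1. Alternatives that change only the scaling moved ratios by at most 1.069-fold (TMM), so they could not make such a gene cross. The 85 also include the rule genes and genes named for their extreme ratios. Of the 22 named genes within 2-fold, 8 crossed a ratio of 1 under at least 1 alternative (Acta1, Cfd, Fabp4, Hba-a2, Hbb-bs, Myh1, Mylpf and Plin1). Hbb-bs stood at 1.1 when ranking on Krt10 alone and at 0.598 by the rule. Another UMI limit changes which spots are members, since 86 of the 150 stayed with at least 2000 UMIs and 48 with at least 8000. Ranking without Krt10 kept 129, and ranking on Krt10 alone kept 125. The count of genes at least 2-fold lower was 328 with at least 8000 UMIs, 1241 with the top 75 spots and 376 with the top 300. At 50 CPM or more, 566 genes were higher and 268 lower, and with no CPM minimum 4866 were higher and 1496 lower. TMM gave 1122 higher and 998 lower, and median of ratios 1163 and 942, where the median log2 ratio was -0.03 and -0.01. Of the called genes 61.4% were higher by CPM, 52.9% by TMM. By TMM against the Col_nHA spots 1121 were higher and 834 lower. Without thinning, cornified spots had a UMI of Lor in 100%, of Flg in 83.3%, of Lce1c in 76.7% and of Klk7 in 68.0%, and the remaining spots had one of Lor in 41.5%, of Flg in 7.00%, of Lce1c in 6.24%, of Krt10 in 57.8%, of Klk7 in 6.72% and of Krt14 in 51.6%. Averaging CPM per spot moved 52 of 107 ratios by over 1.5-fold, and 42 moved without the next 150 spots in rank and 39 with at least 8000 UMIs. No paired analysis was possible because each group has 1 section. The cause of these shifts was not tested.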
